A study of Mus musculus with 16 samples.

Results

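The step from monocyte/dendritic cell progenitors (MDPs) to common dendritic cell progenitors (CDPs) was examined in the bone marrow of tumor-bearing mice, as the difference between the 4 arrays titled CDP_PyMT and the 4 arrays titled MDP_PyMT (replicates 2 to 5 of each), which are 8 of the 16 arrays in the series. The arrays were assigned by their titles. All mice were adult female C57/Bl6. The tumor-bearing animals carried an end-stage orthotopic mammary tumor grown from PyMT B6, a line made from a tumor of the MMTV-PyMT model, in which a mammary promoter drives the polyoma middle T antigen. The other 8 arrays hold the same progenitors from tumor-free (Normal) mice, 4 MDP_Normal and 4 CDP_Normal. Each sample pooled the marrow of 2 mice, both cell types were obtained by cell sorting, and a single implanted tumor line at a single late stage stands for the tumor state.

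MDPs are bone marrow progenitors that can give rise to monocytes, macrophages and dendritic cells. CDPs lie downstream of them and are known mainly as the source of the conventional dendritic cells (cDC1 and cDC2) and of plasmacytoid dendritic cells (pDCs). The receptor tyrosine kinases KIT, FLT3 and CSF1R mark these progenitors, and transcription factors such as IRF8, IRF4, BATF3, ZBTB46, ID2 and SPIB are known for their roles in forming the dendritic lineages.

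Expression was read on 1-color microarrays. A level below is the log2 of a probe's processed intensity minus the log2 of the 75th percentile of its array, so 0 is the brightness of a fairly bright probe and not an absence of RNA. A change is the CDP level minus the MDP level on this log2 scale, fitted with limma over all 16 arrays with the slide as a block. A probe was called where the Benjamini-Hochberg adjusted p was under 0.05 and the fold above 1.5. In bulk RNA, fewer cells of a type and less RNA per cell cannot be told apart. Between 58.8% and 71.5% of probes were well above background on each array, and no probe was saturated. The arrays lie on 4 slides, and 49.4% of the variance lay on a leading principal component of which 93.9% went with the slide. Slide 2 holds MDP_PyMT 3 and CDP_PyMT 4, and slide 3 holds MDP_PyMT 5 and CDP_PyMT 5. Slide 1 holds MDP_PyMT 2 and 4 without a CDP_PyMT array, slide 4 holds CDP_PyMT 2 and 3 without an MDP_PyMT array, and all 4 slides hold both tumor-free groups. The levels given for single arrays carry no slide correction, so a fitted change can differ from the difference of their means.

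The probes behind the most telling results are shown by their opening bases, since an array level belongs to the probe and not to the whole gene. The positions are those of the whole 60-base probes in the mm9 mouse build, as the files give them, and the exons they fall in were not looked up. The probes of Mrgpra2a (chr7:54681698-54681757, minus strand) and Mrgpra2b (chr7:54681703-54681762, minus strand) overlap in 55 of their bases, all of them identical, so these genes are 1 measurement in practice. Capitals mark the shared bases within the opening 30 of each.
Mrgpra2a: CAACATCTCTCCACTAACTTAGTTTTTCTA
Mrgpra2b: aacttCAACATCTCTCCACTAACTTAGTTT
The Mrgpra6 probe (chr7:54441274-54441333, minus strand) is a separate sequence with 38.3% of its bases identical to the Mrgpra2a probe.
Mrgpra6: tttagtctttatctgacatcagttgtcctg
Vcan has a dimmer probe (chr13:89795080-89795139, minus strand) and a brighter one (chr13:89851810-89851869, minus strand) that gave different answers, described further on.
Vcan, dimmer probe: ttcatcctaatgtgtactagagcacagaaa
Vcan, brighter probe: ttgagaaccagacatgcttccctctccctg
Kdm5b was read by 3 probes, at chr1:136528046-136528105, chr1:136528957-136529016 and chr1:136527740-136527799 on the plus strand, which also disagreed in size and are listed in that order.
Kdm5b, brightest probe: ctgtacacggtgctatttctattccttatg
Kdm5b, second probe: gaccagagccagtcctttaagccatgttct
Kdm5b, dimmest probe: tggcaaacggcctgcccgattttgaatggc
The Cd209a (chr8:3743481-3743540, minus strand) and Cd209e (chr8:3848016-3848075, minus strand) probes read neighboring lectin genes of a single family.
Cd209a: ggacatggtgagcctcaatgttatagacct
Cd209e: gaacactcaacttggtcatatttggtgtct

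Under tumor, CDPs gained monocyte and macrophage genes, several dendritic cell transcription factors and lectins, and lost genes of stem and early progenitor cells. These gains and losses are not particular to tumor. In tumor-free CDPs 11 of 27 monocyte and macrophage genes and 10 of 21 dendritic cell transcription factors were also called higher. There 14 of 23 stem and early progenitor genes were called lower. Of 27433 probes tested, 1724 were called, a share of 6.28%. Counted over 16811 genes, each by its brightest probe, 663 (3.94%) were higher in CDPs and 547 (3.25%) were lower. The median size of the change among the called genes was 1.08 on the log2 scale, while the median change over all genes was −0.01. Among the 1210 called genes, 942 had 4 and 4 arrays that did not overlap, as did 2525 of all 16811 genes tested (15.02%).

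The slides that hold both groups gave the direction of nearly all called genes. Of the 1207 called genes with a value on both, 1206 changed in the fitted direction on slide 2 and on slide 3. These slides also enter the fit, so this is a description and not a separate test. The fit to slides 2 and 3 alone called 253 probes in place of 1724, and leaving out MDP_PyMT 3 or CDP_PyMT 5 left 979 or 1058.

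**Figure D1:**
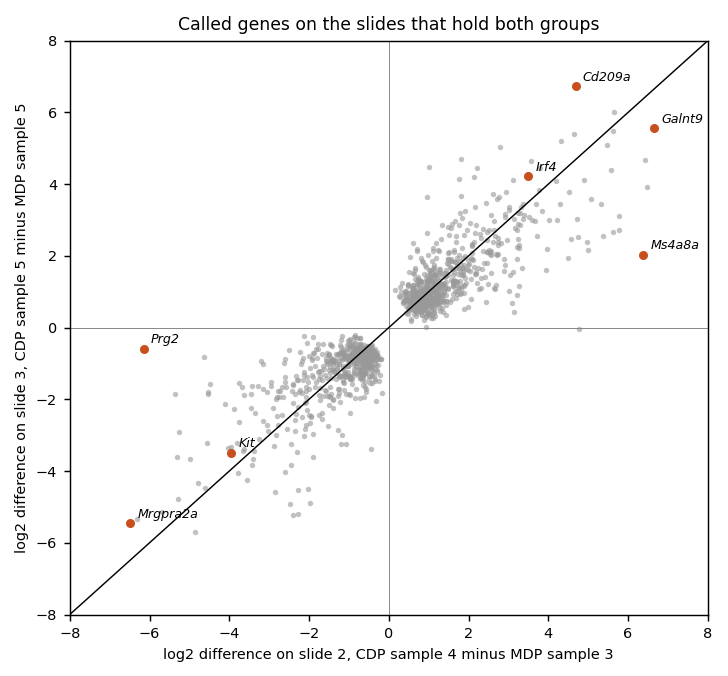
Each point is a gene called at the MDP to CDP step in tumor-bearing mice, plotted by its CDP minus MDP difference (log2) within slide 2 on the x axis and within slide 3 on the y axis, with a line of equal difference and 7 genes named. Of 1207 genes with both values, 1206 lie in the quadrants where both slides give the direction of the fitted change.

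The sorted cells carried the receptors that mark them. Kit, the receptor for stem cell factor, stood at 1.62, 1.53, 1.31 and 1.73 in MDP_PyMT 2 to 5 and at −2.68, −2.20, −2.42 and −1.77 in CDP_PyMT 2 to 5. All CDP arrays were thus far below all MDP arrays, with a fitted change of −3.74 (SE 0.21, limma adjusted p = 7.64e-06), a 13.4-fold lower level. KIT protein is commonly part of the gate that parts these progenitors, so this difference is given as a check of the sort and not as a result. Csf1r, the receptor for macrophage colony-stimulating factor, lay between 3.37 and 4.10 in MDPs and between 4.10 and 4.34 in CDPs, and its change of 0.24 was not called (limma adjusted p = 0.247). Flt3, the receptor for FLT3 ligand, ranged from 0.40 to 1.58 in MDPs and from 0.14 to 1.61 in CDPs (change −0.26, limma adjusted p = 0.760). The ranges of Csf1r touch and those of Flt3 overlap. Irf8, a transcription factor of the monocyte and dendritic lineages, was among the brighter genes in both, at 3.65, 4.20, 3.63 and 4.43 in MDPs and 4.37, 4.54, 4.08 and 4.23 in CDPs. Its fitted change was −0.10 (SE 0.11, limma adjusted p = 0.651), and the fit without the slide block gave 0.33. Il7r, the interleukin 7 receptor, did not pass the filter on dim probes.

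Ranking each gene by its brightest probe, the falls were headed by Mas-related G protein-coupled receptors, a family first known from sensory neurons. Mrgpra2a stood at −0.24, −0.91, −0.04 and −1.94 in MDPs and at −7.42, −6.47, −7.39 and −7.40 in CDPs. The probe was well above background on every MDP array and on no CDP array, so the difference has only a bound and MDPs were at least 22.4-fold higher. This bound sets the bright group against the lowest signal that counts as well above background on each dim array, and uses the dim probe's signal in its place wherever that was brighter. The fitted change was −6.14 (SE 0.32, limma adjusted p = 7.64e-06). Mrgpra6, the separate family member, fell from −2.75, −2.14, −1.88 and −2.55 in MDPs to −7.47, −7.63, −7.43 and −7.34 in CDPs, where it was not well above background (at least 7.67-fold, fitted change −5.29, SE 0.30, limma adjusted p = 7.64e-06). Both genes also fell in tumor-free mice, with changes of −5.30 for Mrgpra2a and −3.51 for Mrgpra6. For every gene in this and the next paragraph the 4 and 4 arrays did not overlap, which in an exact permutation test of the uncorrected levels gives p = 0.0286, two-sided, the smallest that 70 relabelings can give. Lack of overlap was a condition for naming these genes and held for 15.02% of all tested genes. This p was thus fixed by the choice and is no support for them.

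Other genes of the 12 largest falls included enzymes, a chromatin regulator and genes of the stem cell compartment. Cyp2j6, a cytochrome P450, was at −2.10, −1.67, −2.70 and −2.18 in MDPs and not well above background in CDPs (at least 8.62-fold lower, limma adjusted p = 0.000292). Ces2g, a carboxylesterase, went the same way, from between −3.57 and −2.99 in MDPs to below background in CDPs (at least 4.14-fold lower, limma adjusted p = 7.64e-06). Kdm5b, a histone H3 lysine 4 demethylase, stood at −0.39, −1.87, −1.53 and −0.87 in MDPs and at −7.38, −6.82, −6.48 and −5.34 in CDPs by its brightest probe. That probe was on no CDP_PyMT array well above background (at least 17.2-fold lower, limma adjusted p = 0.000430). The probes of Kdm5b disagreed in size, with a change of −4.62 for the brightest, −1.13 for the second (limma adjusted p = 0.0402) and −0.65 for the dimmest (limma adjusted p = 0.581). Angpt1, a ligand of the TIE2 receptor, was at −1.96, −2.53, −2.97 and −1.67 in MDPs and not well above background in CDPs (at least 7.94-fold lower, limma adjusted p = 0.00528). Erg, an ETS transcription factor of blood stem cells, went from 0.23, −0.80, −0.32 and −0.14 to −7.18, −4.29, −6.12 and −3.75, with 2 of 4 CDP arrays well above background (change −4.47, SE 0.62, limma adjusted p = 0.00175). Prom1, which encodes the surface protein CD133, fell by 4.19 (limma adjusted p = 0.0120), and without CDP_PyMT 5 its change of −3.39 was not called (limma adjusted p = 0.0607). Prg2, the eosinophil granule major basic protein, spread widely, at 0.77, 1.67, 0.20 and −1.29 in MDPs and −1.84, −2.32, −4.48 and −1.87 in CDPs. Its within-slide differences were −6.15 on slide 2 and −0.58 on slide 3, and its fitted change of −3.94 (limma adjusted p = 0.0237) was not called without MDP_PyMT 3 (−3.21, adjusted p = 0.107), without CDP_PyMT 4 (−3.26, adjusted p = 0.0857) or without the slide block (−2.97, adjusted p = 0.0532). Cdk18, a cyclin-dependent kinase family member, and Cabcoco1 completed the set with changes of −4.07 (limma adjusted p = 0.00505, and 0.0626 with normexp correction) and −3.98 (limma adjusted p = 0.00446). On the 8 arrays of tumor-bearing mice alone, with the slide block, Erg (−4.465, limma adjusted p = 0.184) and Prom1 (−3.811, adjusted p = 0.131) were not called. The same fit did not call Cdk18 (−3.886, limma adjusted p = 0.165) or Cabcoco1 (−3.605, adjusted p = 0.241). In tumor-free mice every gene of this paragraph also had a change below 0, with those of Erg (−1.66) and Prg2 (−1.18) not called. Cyp2j6 changed there by −4.75, Ces2g by −4.40, Kdm5b by −2.05 (brightest probe), Angpt1 by −4.64 and Prom1 by −4.68.

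Of the 12 largest rises, Galnt9 came first. Galnt9, an enzyme that begins O-linked glycosylation, stood at −6.74, −7.11, −7.06 and −7.22 in MDPs, on none of which it was well above background, and at 0.10, −0.86, −0.46 and −1.67 in CDPs. CDPs were at least 22.3-fold higher (fitted change 6.12, SE 0.69, limma adjusted p = 0.000559). Cd209a, a C-type lectin related to DC-SIGN, rose from −7.30, −7.23, −7.08 and −7.33 to −0.80, −2.85, −2.55 and −0.60 (at least 11.3-fold, fitted change 5.44, SE 0.55, limma adjusted p = 0.000303). In tumor-free MDPs the same probe was well above background on 4 of 4 arrays, at −4.32 to −3.09, and in tumor-free CDPs it reached 1.25 to 1.72. A second, dimmer Cd209a probe did not pass in tumor-bearing mice (change 2.33, limma adjusted p = 0.241), with 2 of 4 CDP_PyMT arrays well above background and a difference of −0.15 on slide 2. Slfn1, a Schlafen family gene, was at least 15.2-fold higher in CDPs (limma adjusted p = 0.00364), and Fgr, a SRC-family kinase of myeloid cells, at least 6.02-fold higher (limma adjusted p = 0.000313). Clec4a3, a lectin-like receptor of myeloid cells, was at least 6.39-fold higher (limma adjusted p = 0.000430). Irf4, a transcription factor of cDC2s, stood at −7.18, −7.15, −7.24 and −6.82 in MDPs and −2.87, −3.08, −3.65 and −2.60 in CDPs (at least 4.42-fold, limma adjusted p = 0.000257). Irf4 was thus well above background on every CDP_PyMT array and on no MDP_PyMT array. With normexp background correction neither Irf4 (1.35, limma adjusted p = 0.0588) nor Clec4a3 (1.67, limma adjusted p = 0.0634) was called.

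The other rises among the 12 largest were partly detected in MDPs. Cd40, a co-stimulatory receptor, was at −3.57, −7.19, −3.88 and −7.34 in MDPs, with 2 of 4 arrays well above background, and at −1.65, −2.89, −1.57 and −1.85 in CDPs (change 4.70, limma adjusted p = 0.00115). The lower pair of MDP values lies on slides 2 and 3. Gm10693 rose by 4.59 (limma adjusted p = 7.02e-05) by its brighter probe and by 2.49 by its dimmer one (limma adjusted p = 0.000803), and A530064D06Rik rose by 4.47 (limma adjusted p = 0.00990). Ms4a8a, of the membrane-spanning 4A family, rose by 5.44 (limma adjusted p = 0.0152), with 6.38 on slide 2 and 2.03 on slide 3, and without MDP_PyMT 3 its change of 4.80 was not called (limma adjusted p = 0.0749). Crybg1 rose by 4.52 (limma adjusted p = 0.00979), and leaving out the same array ended that call too (3.81, adjusted p = 0.0539).

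**Figure D2:**
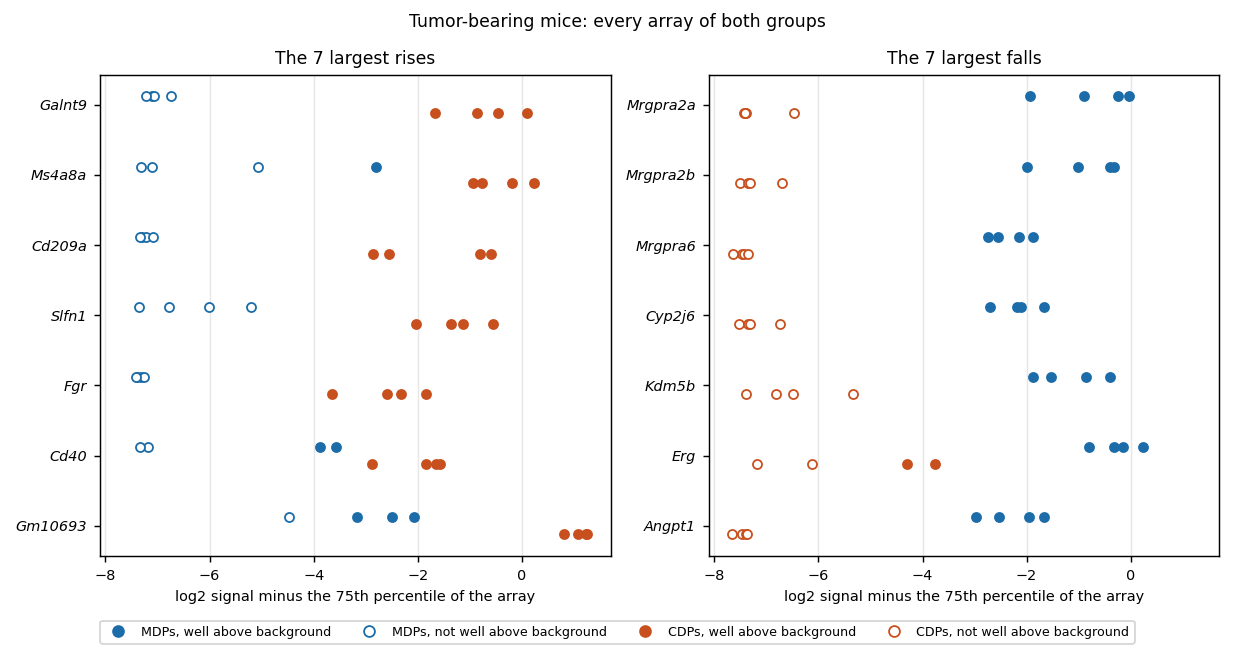
Levels (log2 signal minus the 75th percentile of the array, x axis) of the 7 largest rises and the 7 largest falls in tumor-bearing mice, one point per array, with MDPs in blue, CDPs in orange and open points where the probe was not well above background. Within every gene the 4 MDP and the 4 CDP arrays stand apart, as the choice of these genes required, and many dim groups are open points near −7.

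Counting probes that crossed the background in every array gives a view that does not rest on the size of a change. Well above background on 4 of 4 CDP_PyMT and on 0 of 4 MDP_PyMT arrays were 75 probes with 64 symbols, of which 39 probes were also called. The reverse held for 36 probes with 33 symbols, of which 26 were called. On slides 2 and 3 alone, with 2 arrays a group, the counts were 237 gained and 213 lost. In tumor-free mice the counts were 48 gained and 46 lost, and 9 of the gained and 13 of the lost probes were the same in both states. The share of probes well above background was 58.8% to 67.3% on the MDP_PyMT arrays and 64.0% to 71.4% on the CDP_PyMT arrays. MDP_PyMT 2 and 4, on slide 1, had 60.7% and 58.8%, and CDP_PyMT 2 and 3, on slide 4, had 69.4% and 71.4%. The shares of MDPs and CDPs were 64.2% and 64.0% on slide 2 and 67.3% and 67.9% on slide 3. These counts carry no slide correction, and the part of the slide and of this share in them was not tested. Among the genes with a gained probe beside those already named were Sirpb1b, a signal regulatory protein (at least 8.73-fold, limma adjusted p = 0.00116), Ifi207, of the interferon-inducible p200 family (at least 12.8-fold, limma adjusted p = 0.000250), and Kynu, kynureninase of tryptophan breakdown (at least 2.74-fold, limma adjusted p = 0.000157). Among the genes with a lost probe were Mgam, maltase-glucoamylase (at least 11.97-fold, limma adjusted p = 5.42e-05), and Mc5r, a melanocortin receptor (at least 4.76-fold, limma adjusted p = 0.000430). These 5 genes were chosen after their values were seen. Their values are those of the probes that crossed the background, which need not be the brightest probes of the genes. Sirpb1b, Ifi207 and Mgam were not among the 12 largest rises or falls, which go by the brightest probe. Only 1 gained probe, that of Vcan, was not well above background on any tumor-free array, and only 1 lost probe, that of Kdm5b, was well above background on all 8 tumor-free arrays. The second Kdm5b probe was well above background on 4 of 4 CDP_PyMT arrays. Its change was −1.13 under tumor and −1.34 in tumor-free mice.

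Of the 25 gene lists, that of stem and early progenitor cells held the most falls. Of 23 tested members of this list, 16 were called lower in CDPs and 1 higher, with a median change of −1.20 against −0.01 over all genes. These 16 include Kit, whose fall is given above as a check of the sort and not as a result. The summed level of the list, in multiples of the 75th percentile of the array, was 46.2 to 50.2 in MDPs and 21.7 to 23.0 in CDPs. Beside Erg, Angpt1, Prom1 and Kit, the falls included Adgrg1, an adhesion receptor (−2.95), and Cd27, a TNF receptor family member that parts progenitor stages (−2.72). Cd34, the sialomucin used to sort progenitors, fell by 1.72, and the transcription factors Hlf, Tal1, Myb, Meis1, Hoxa9 and Sox4 fell by between 0.92 and 2.32. Ly6a, which encodes the stem cell antigen SCA-1, was the member called higher (0.83). Procr and Gata2 had changes of −2.55 and −1.99 that were not called, and Runx1 stood at 0.01. On slides 2 and 3 alone 5 members were called lower and none higher (median −1.23). In tumor-free mice 14 members were lower and 2 higher (median −0.92). Counts of the states are given side by side and are not read against each other, since the groups lie differently on the slides, and no member of any of the 25 lists passed the test of the difference by its brightest probe.

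Lineage lists outside the dendritic branch each held single falls or a few, where 3.25% of all genes were called lower. Of 17 erythroid genes, 4 were called lower and none higher (median −0.26). These were Car2, a carbonic anhydrase (−2.64, limma adjusted p = 0.00154), Aqp1, a water channel (−2.70, adjusted p = 0.0149, and 0.177 with normexp correction), Car1 (−2.85, adjusted p = 0.0363) and the transcription factor Klf1 (−3.04, adjusted p = 0.0386). The calls of Car1 and Klf1 were each lost in 11 of the 16 fits that leave out 1 array, with an adjusted p of up to 0.109 for Car1, without CDP_PyMT 5, and up to 0.113 for Klf1, without MDP_PyMT 3. The second Car1 probe was at least 11.5-fold lower (limma adjusted p = 0.00116). Globin mRNA did not move with them, with changes of −0.01 for Hba-a1 and 0.99 for Hbb-b1 (neither called), and the summed level of the list ranged from 46.7 to 89.4 in MDPs and from 70.7 to 90.1 in CDPs. Hdc, the histamine-forming enzyme, was the only 1 of 6 mast cell and basophil genes called (median of the list −0.47), at 1.85, 1.98, 1.78 and 1.74 in MDPs and −1.20, −1.72, −2.05 and −1.62 in CDPs (12.3-fold lower, limma adjusted p = 0.000234). The mast cell markers Ms4a2, Mcpt4 and Cma1 were on no array of tumor-bearing mice well above background. Of 15 T and NK cell genes, 8 with a change above 0 and a median of 0.02, Nkg7, a granule membrane protein, was the only one called, at 4.15, 3.82, 3.95 and 3.72 in MDPs and 1.33, 1.02, 1.28 and 0.89 in CDPs (6.40-fold lower, limma adjusted p = 7.64e-06). Its second probe fell by 3.35. F2rl3, a thrombin receptor of platelets, was the only one called of 13 megakaryocyte genes (−2.48, limma adjusted p = 0.00446), 10 of which had a change above 0 (median 0.34).

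Primary granule genes, which myeloid precursors express before the secondary granule genes of maturing neutrophils, were lower for 3 of 13 tested members, with a median change of −0.55. Prss57, a serine protease of these granules, fell from 1.70, 1.56, 1.27 and 1.19 to −2.48, −2.39, −1.46 and −1.70 (7.79-fold, limma adjusted p = 2.47e-05). The MDP and CDP arrays stood well apart for it. Cst7, a cathepsin inhibitor, fell by 0.83 (limma adjusted p = 0.00397), and was not called without the slide block (−0.63, adjusted p = 0.0657). Elane, neutrophil elastase, fell by 1.02 (limma adjusted p = 0.0181). Its call was lost without MDP_PyMT 3 (−0.92, adjusted p = 0.0830), MDP_PyMT 5 (−0.96, adjusted p = 0.0691), CDP_PyMT 4 (−0.88, adjusted p = 0.0686) or CDP_PyMT 5 (−0.95, adjusted p = 0.0784). Mpo, Ctsg and Prtn3 had changes of −0.55, −0.54 and −0.50, none of them called. In tumor-free mice 9 of the 13 were called lower (median −0.85). Of 13 secondary and tertiary granule genes, 2 were called higher, Mmp8, a collagenase (1.57, limma adjusted p = 0.00825), and Cybb, the catalytic subunit of the phagocyte oxidase (0.98, limma adjusted p = 0.00434). S100a8 and S100a9, a pair of calcium-binding proteins abundant in neutrophils and monocytes, had changes of 2.01 and 1.97 that were not called. The summed level of these 13 genes was 48.4 to 73.6 in MDP_PyMT, 77.8 to 110.3 in CDP_PyMT, 30.8 to 36.7 in MDP_Normal and 34.6 to 58.2 in CDP_Normal, and the part of neutrophil precursors in any gate was not tested.

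Of the 25 gene lists, that of monocyte and macrophage genes held the most rises. Of 27 tested members, 14 were called higher in CDPs and none lower, with a median change of 1.10, and the summed level rose from 100.2 to 129.2 across MDP arrays to 196.1 to 226.8 across CDP arrays. Fn1, fibronectin, was at 1.03, 0.69, 0.72 and −0.59 in MDPs and 3.40, 3.73, 3.45 and 3.06 in CDPs (9.29-fold, limma adjusted p = 0.000266). Lyz2, the lysozyme of myeloid cells, was at 1.06, 1.32, 0.41 and 1.31 in MDPs and 4.22, 3.73, 3.46 and 3.70 in CDPs (5.82-fold, limma adjusted p = 0.000782). Every CDP array was above every MDP array for both. Fcgr1, the high-affinity IgG receptor, rose by 1.71 (limma adjusted p = 0.00522), Irf5 by 1.44, S100a4 by 1.45, Mpeg1 by 1.08 and Adgre1, which encodes F4/80, by 1.31. The fit to slides 2 and 3 alone called 5 of them higher (median 1.28). In tumor-free mice 11 members were called higher and none lower (median 0.76). The complement genes C1qa, C1qb and C1qc, markers of macrophages, had changes of 1.05, 0.28 and 1.61, none called, and the monocyte marker Ly6c1 one of 0.05.

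**Figure D3:**
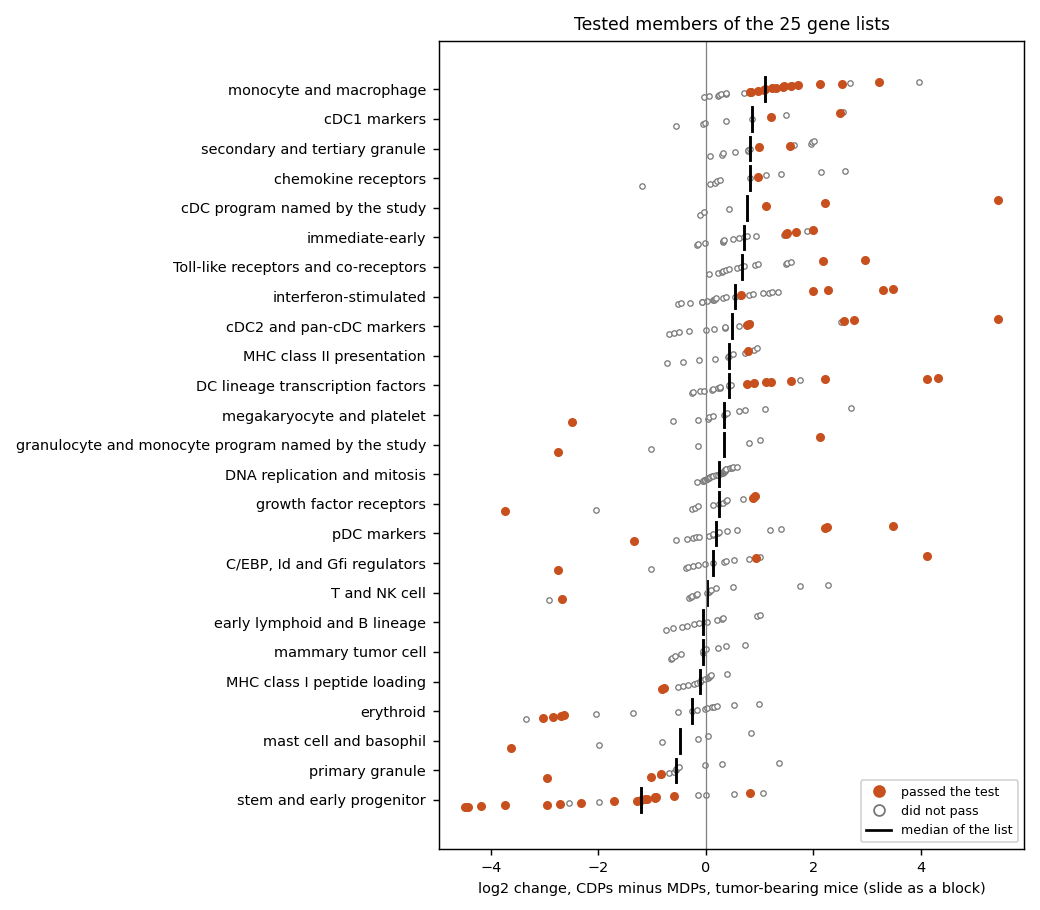
Fitted CDP minus MDP changes (log2, x axis) in tumor-bearing mice for the tested members of each of the 25 gene lists (y axis), with filled points for members that passed the test, open points for the others and a bar at the median. The stem and early progenitor list lies mostly below 0 (16 of 23 called lower) and the monocyte and macrophage list mostly above it (14 of 27 called higher).

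Dendritic cell transcription factors rose in part. Of 21 tested members of this list, 8 were called higher and none lower (median 0.43), and 3 on slides 2 and 3 alone (median 0.49). In tumor-free mice 10 were called higher (median 0.65). Id2, an inhibitor of E proteins needed for cDC1s, rose from −4.32, −7.26, −5.29 and −6.65 to −1.42, −2.02, −2.35 and −2.53 (change 4.11, SE 0.70, limma adjusted p = 0.00572), with 1 of 4 MDP arrays well above background. With normexp correction its change of 1.61 was not called (limma adjusted p = 0.228). Klf4, a factor of monocytes and some cDC2s, rose by 1.59 (limma adjusted p = 0.000409), Bcl6 by 1.22 (0.000526 in the same test), Nfil3 by 0.91 and Notch2 by 0.76. Mycl, Relb and Stat3 had changes of 1.75, 0.43 and 0.27, none called, and Spi1, which encodes PU.1, one of 0.12.

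Of the 6 cDC genes the study singled out from these samples, 3 were called higher and none lower. Cd209a has been described. Zbtb46, a factor of the cDC lineage, stood at −5.11, −3.74, −4.40 and −2.88 in MDPs and −2.54, −2.31, −2.67 and −1.58 in CDPs (change 1.12, limma adjusted p = 0.0481). Its call was lost in 13 of the 16 fits that leave out 1 array, with an adjusted p of up to 0.198 (change 0.85) without CDP_PyMT 5. Spib, an ETS factor of pDCs and B cells, was at −5.69, −7.29, −5.20 and −6.01 in MDPs, on none of which it was well above background, and at −4.08, −5.26, −5.53 and −3.99 in CDPs, with 2 of 4 arrays above it. These groups overlap in their uncorrected levels (exact permutation p = 0.0857, n = 4 and 4), and the fitted change of 2.22 (limma adjusted p = 0.0180) was not called without MDP_PyMT 3 (2.04, adjusted p = 0.0808), MDP_PyMT 5 (2.26, adjusted p = 0.0542) or CDP_PyMT 5 (2.32, adjusted p = 0.0562). It was also not called without the slide block (1.34, adjusted p = 0.174) or with normexp correction (0.73, adjusted p = 0.376). Batf3, a factor of cDC1s, had a change of −0.03 (SE 0.19), and Bcl11a, a factor of pDCs, one of 0.43 (SE 0.18, limma adjusted p = 0.184). In tumor-free mice 4 of the 6 were called higher, with Bcl11a at 1.11, Zbtb46 at 1.49 and Spib at 4.15. The list was chosen by the study on these samples, so its counts are no independent evidence of a direction.

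The markers of the dendritic cell types themselves moved singly, where 3.94% of all genes were called higher. Of 9 tested cDC1 markers, 2 were called higher, Naaa, a lipid amidase, at −2.70, −1.78, −1.77 and −2.26 in MDPs and 1.04, 1.03, 0.95 and 0.23 in CDPs (5.66-fold, limma adjusted p = 0.000816), and Btla, an inhibitory receptor (1.22, limma adjusted p = 0.00684), which was not called without the slide block (0.83, adjusted p = 0.137). Clec9a, the receptor for dead cells that defines cDC1s, had a change of 2.56 that was not called, and Xcr1 was on no array of tumor-bearing mice well above background. Of 16 cDC2 and pan-cDC markers, 5 were called higher. Apart from Cd209a these were Tnfsf9, the 4-1BB ligand (2.58, limma adjusted p = 0.00446, and 0.0639 without the slide block), Sirpa (0.77, adjusted p = 0.00240), Cd86, a co-stimulatory ligand (2.77, adjusted p = 0.0305), and Clec10a, a lectin (0.81, adjusted p = 0.0429). The Cd86 call was lost in 7 of the 16 fits without 1 array, up to an adjusted p of 0.126 (change 2.07) without MDP_PyMT 3, and that of Clec10a in 11, up to 0.149 (change 0.75) without CDP_PyMT 5. Itgax, which encodes CD11c, had a change of 2.51 that was not called.

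Of 18 pDC markers, 3 were called higher and 1 lower (median 0.18). In tumor-free mice 9 were called higher and none lower (median 0.78), and no member passed the test of the difference. Cd7, an immunoglobulin-like surface protein, rose from −1.58, −1.77, −1.88 and −1.14 to 1.12, −0.32, 0.70 and 1.30 (4.76-fold, limma adjusted p = 0.00197), and by 3.36 in tumor-free mice. Ptprcap, a partner of the phosphatase CD45, fell from 1.82, 1.98, 1.75 and 1.85 to 0.49, 0.05, 0.55 and 0.92 (2.53-fold, limma adjusted p = 0.00152), where the tumor-free change of −0.31 was not called. The difference between those changes, −1.03, had an unadjusted limma p of 0.00113 and an adjusted p of 0.558. Siglech, the lectin that defines pDCs, and Tcf4, their master regulator, had changes of −0.18 and −0.24.

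Among the granulocyte and monocyte regulators the study named, Gfi1, a repressor needed for neutrophils, fell from 1.45, 1.39, 1.76 and 0.94 to −1.20, −0.96, −1.06 and −2.89 (6.70-fold, limma adjusted p = 0.00186), and by 4.42 in tumor-free mice. Cebpa, Cebpb and Cebpe, members of the C/EBP family that drives granulocytes and monocytes, changed by −0.14, 0.81 and −1.01, and Id1, an inhibitor of E proteins, by 1.001, none of them called (limma adjusted p = 0.595, 0.0627, 0.166 and 0.107). This list too was chosen by the study on these samples. Of the wider list of 15 C/EBP, Id and Gfi regulators, 2 were called higher, Id2 and Cebpg (0.93, limma adjusted p = 0.00740, but 0.49 and an adjusted p of 0.265 without the slide block), and 1 lower, Gfi1.

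Few receptors and response genes of innate cells were called, where 3.94% of all genes were called higher and 3.25% lower. Counts of 1 or 2 in lists this short are not read as a result about the lists. Among 13 growth factor receptors, Csf2ra (0.91, limma adjusted p = 0.00394) and Csf2rb2 (0.88, limma adjusted p = 0.00760), subunits of the receptors for GM-CSF and interleukin 3, were called higher, and Kit, the check of the sort, lower. Of 16 Toll-like receptors and co-receptors all had a change above 0 (median 0.68) and 2 were called. Tlr13, a sensor of bacterial ribosomal RNA, rose from −1.60, −1.98, −1.76 and −2.46 to 1.57, 1.35, 0.93 and 0.71 (7.78-fold, limma adjusted p = 0.000850). Tlr8 rose by 2.19 (limma adjusted p = 0.0469), a call lost in 11 of the 16 fits without 1 array, up to 0.130 (change 2.21) without CDP_PyMT 5. Ccr2, the receptor that calls monocytes out of the marrow, was the only one called of 11 chemokine receptors (0.97, limma adjusted p = 0.00264). Of 11 genes of MHC class II presentation, Ctss, a protease that trims the invariant chain, was the only one called (0.78, limma adjusted p = 0.0256). The call was lost without MDP_Normal 3 (0.74, adjusted p = 0.0540), MDP_PyMT 3 (0.77, adjusted p = 0.0864), MDP_PyMT 5 (0.85, adjusted p = 0.0517), CDP_Normal 3 (0.72, adjusted p = 0.0526) or CDP_PyMT 4 (0.67, adjusted p = 0.0885). H2-Aa, Cd74 and H2-Ab1 had changes of 0.89, 0.96 and −0.42, none called. Of 15 genes of MHC class I loading, 2 were lower, the chaperone Calr (−0.81, limma adjusted p = 0.00267) and the peptide transporter Tap2 (−0.78, adjusted p = 0.0122), the latter not called without CDP_PyMT 5 (−0.74, adjusted p = 0.0581).

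Of 25 interferon-stimulated genes, 5 were called higher and none lower (median 0.55). In tumor-free mice 9 were higher and 1 lower. Irf7, the regulator of type I interferon genes, rose from −3.98, −5.89, −7.07 and −3.11 to −1.36, −1.50, −1.38 and −1.16 (change 3.48, limma adjusted p = 0.0154), with 2 of 4 MDP arrays well above background. The call was lost without MDP_PyMT 3 (2.97, adjusted p = 0.0770) or CDP_PyMT 4 (3.34, adjusted p = 0.0521). Mx1, a GTPase that blocks viruses, rose by 3.30 (limma adjusted p = 0.00965) and Ifi27l2a by 2.27 (limma adjusted p = 0.00511), while Stat2 rose by 0.66. Ifit3 rose by 1.99 (limma adjusted p = 0.0493) with groups that overlap, and lost its call in 13 of the 16 fits without 1 array, up to an adjusted p of 0.176 (change 1.51) without MDP_PyMT 5. Isg15 and Ifit2 had changes of 0.17 and −0.07. Among 17 immediate-early genes, 4 were called higher, Zfp36, which destabilizes mRNAs (1.99, limma adjusted p = 0.00278, and 0.110 with normexp correction), Klf6 (1.68, adjusted p = 0.00150), Btg2 (1.52, adjusted p = 0.0375) and Fos, a subunit of AP-1 (1.49, adjusted p = 0.00194). The Btg2 call was lost in 12 of the 16 fits without 1 array, up to an adjusted p of 0.161 (change 1.20) without CDP_PyMT 5. Egr1 and Jun had changes of −0.02 and −0.17. The summed level of the 17 genes was 5.33 to 7.36 in MDPs and 9.37 to 11.9 in CDPs, and the time between marrow harvest and lysis is not given in the sources used here.

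Other lists gave no calls. None of 30 genes of DNA replication and mitosis was called, and their changes ran from −0.17 to 0.59 (median 0.24). None of 12 early lymphoid and B lineage genes was called (median −0.05), and Ebf1 and Ms4a1 were on no array of tumor-bearing mice well above background. Of 10 tested mammary tumor cell genes none was called (median −0.05), and Cdh1, Cldn3, Wap, Csn2 and Elf5 were on no such array well above background. The summed level of the mammary list was 0.948 to 2.17 in MDP_PyMT and 1.13 to 2.28 in CDP_PyMT, beside 1.30 to 2.51 in MDP_Normal.

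The step was set against the same step in tumor-free mice, to ask which changes differ under tumor. In tumor-free mice 949 genes (5.65%) were called higher in CDPs and 1020 (6.07%) lower. Called in the same direction in both states were 861 genes, which are 71.2% of the calls under tumor and 43.7% of the tumor-free calls, and none was called in opposite directions. A further 28 genes called under tumor had a tumor-free change of the opposite sign. All 4 slides hold both tumor-free groups and 2 of the 4 hold both tumor groups, so their numbers of calls are not comparable. The difference of the changes was tested directly in the same fit, where 2 of 27433 probes were called (0.00729%), with 1479 at an unadjusted p under 0.05.

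**Figure D4:**
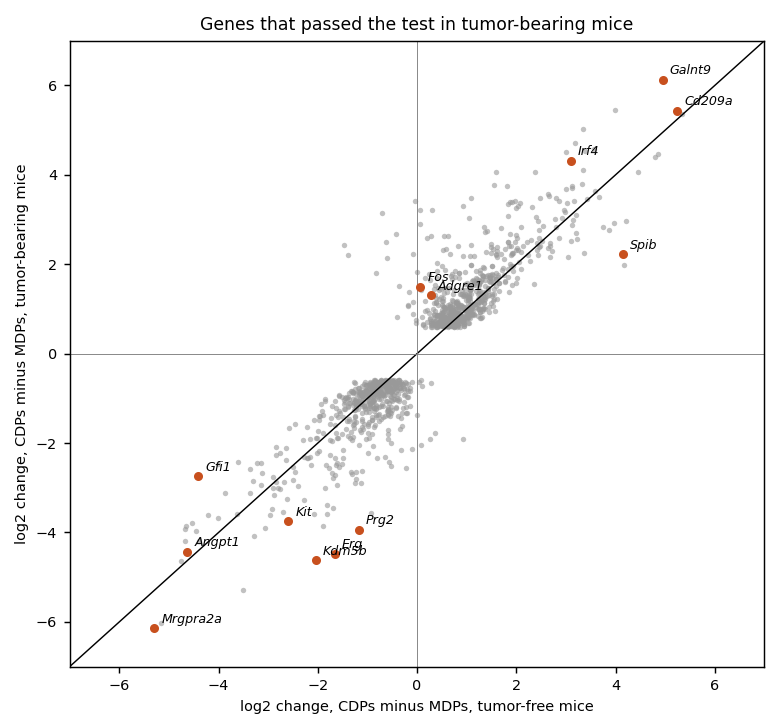
Each point is 1 of the 1210 genes called in tumor-bearing mice, with its CDP minus MDP change (log2) in tumor-free mice on the x axis and in tumor-bearing mice on the y axis, a line of equal change and some genes named. All but 28 genes lie in the quadrants of equal direction.

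The probes called in the difference were those of Vcan and Cd209e. Each passed the filter on dim probes only through the group where it was high, CDP_PyMT for the dimmer Vcan probe and CDP_Normal for Cd209e. Neither could have entered the test without that signal, so the calls are a description of these probes. Vcan encodes versican, a large matrix proteoglycan that monocytes and macrophages also make. Its dimmer probe stood at −6.84, −6.93, −6.89 and −6.79 in MDP_PyMT and at −2.64, −1.96, −1.40 and −3.47 in CDP_PyMT, and between −7.32 and −6.93 on all 8 tumor-free arrays. It was well above background on the CDP_PyMT arrays and on no other (at least 7.11-fold higher than in MDP_PyMT, change 4.50, limma adjusted p = 7.02e-05). The tumor-free change was 0.07 and the difference 4.43 (limma adjusted p = 0.0200). The brighter Vcan probe rose from −3.63, −5.10, −2.43 and −5.02 to 0.05, 0.78, 1.37 and −0.70, with no overlap, but its change of 3.97 (SE 1.13) was not called (limma adjusted p = 0.0574), and its difference of 3.03 from the tumor-free change of 0.94 had an adjusted p of 0.927. On tumor-free CDP arrays the brighter probe lay between −6.64 and −1.48, so its spread there was wide. Cd209e, a lectin next to Cd209a, was on no array well above background except the 4 CDP_Normal arrays, at −4.21, −4.04, −3.43 and −2.59. Its tumor-free change was 3.84, its change under tumor 0.19 and the difference −3.65 (limma adjusted p = 0.0189). Leaving out 1 array ended both calls in 8 of 16 fits, those without MDP_Normal 2, 3 or 4, MDP_PyMT 3 or 4, CDP_Normal 3 or 4, or CDP_PyMT 4, with no change of direction. The Vcan call was also lost without MDP_Normal 5 or MDP_PyMT 2, and that of Cd209e without CDP_PyMT 5. Both calls were lost too with quantile normalization, with normexp background correction, in the authors' value table and on slides 2 and 3 alone.

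Genes named above for other reasons differed between the states only before adjustment. Fos rose by 1.49 under tumor and changed by 0.06 in tumor-free mice, a difference of 1.43 with an unadjusted limma p of 0.000300 and an adjusted p of 0.395. Mrgpra6 fell further under tumor, with a difference of −1.78 (unadjusted p = 0.000840, limma adjusted p = 0.512). For Kit the difference was −1.15 (unadjusted p = 0.00164, limma adjusted p = 0.560). Kit stood at −1.33 to −0.66 in CDP_Normal and −2.68 to −1.77 in CDP_PyMT, so these CDP groups did not overlap, while the MDP groups did. The brightest Kdm5b probe was well above background on all 4 CDP_Normal arrays, at −3.35 to −0.72, and the difference of −2.57 had an unadjusted p of 0.00222 (limma adjusted p = 0.612), while the other Kdm5b probes differed by 0.21 and 0.11. Erg stood at −2.56 to −0.65 in CDP_Normal, above all CDP_PyMT arrays (difference −2.82, unadjusted p = 0.00540, limma adjusted p = 0.728). Spib rose less under tumor, with a difference of −1.92 (unadjusted p = 0.0113, limma adjusted p = 0.810). None of the differences in this paragraph passed the adjustment over all probes, of which 1479 of 27433 had an unadjusted p under 0.05. Fos, Mrgpra6, Kdm5b and Erg were named for their changes under tumor, which by itself favors a larger change there.

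**Figure D5:**
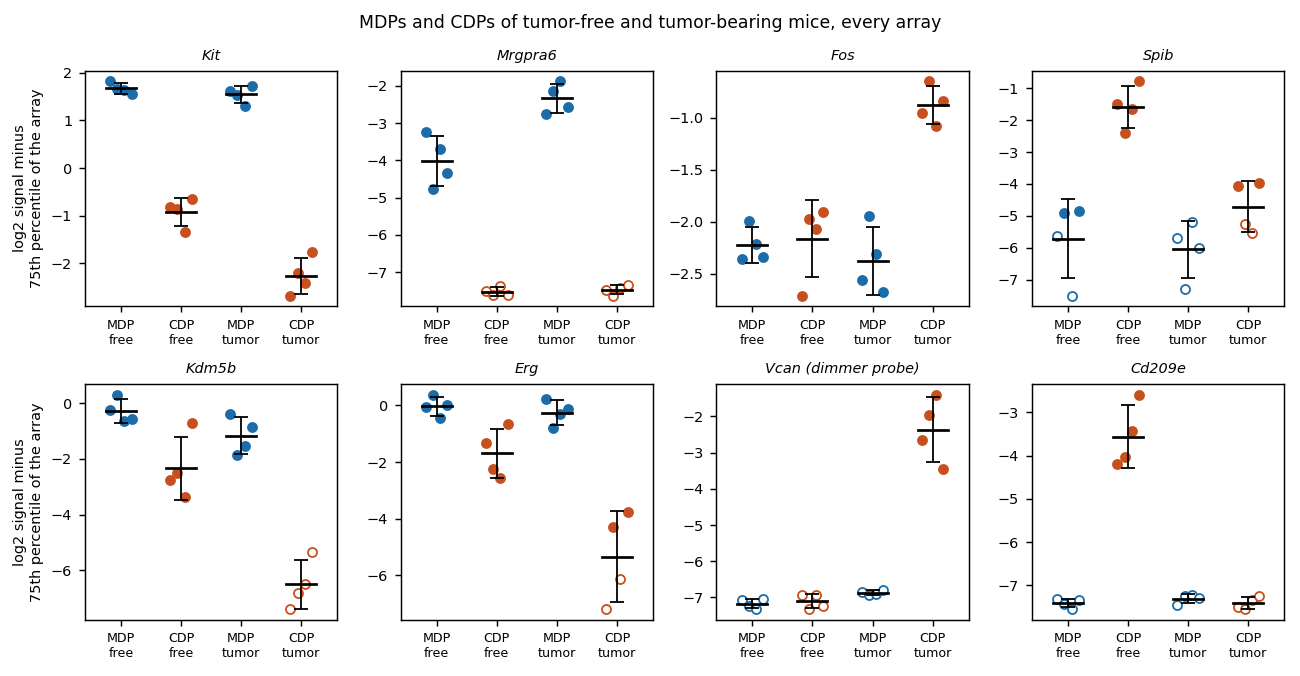
Levels (log2 signal minus the 75th percentile of the array, y axis) of 8 genes in MDPs (blue) and CDPs (orange) of tumor-free and tumor-bearing mice, one point per array, open where the probe was not well above background, with the mean and SD of 4 arrays. The dimmer Vcan probe is well above background in CDPs of tumor-bearing mice alone and Cd209e in CDPs of tumor-free mice alone, and these 2 are the differences of the steps that were called.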

How the data were processed

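Total RNA from sorted MDPs and CDPs was labeled with Cy5 and read on Agilent mouse arrays, 1 per sample. The authors deposited the Feature Extraction output, with the processed intensity and quality flags of each spot, and a value table in log2 whose values matched the processed intensity of their own arrays (r of 0.994 to 1.00, with its scaling not stated). Control spots and outlier flags were left out, spots of a probe were averaged, and log2 intensity minus the 75th percentile of its array was used. A probe was kept (27433 of 39429) if at least 3 of 4 arrays in a group read it well above background. Of the probes, 31607 had a symbol, with 1403 symbols updated through RefSeq accessions. The flags (other) served only for filters and detection. The model of group means and slide used lmFit and eBayes of limma 3.58.1, under R 4.3.3, with residual df 9, with Benjamini-Hochberg adjustment over all probes, after the script was tested on simulated data. Each slide was scanned in 1 run, so slide and scan cannot be told apart. Replicates came from independent experiments per the labels, and the number of arrays limits the precision.

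The members and the gene lists were chosen with earlier results of these data known. Genes were named by rule, by the brightest probe: the 12 largest rises and falls among called, non-overlapping genes with the same direction on slides 2 and 3 and detected on 4 of 4 arrays of the higher group, the genes the study named and the sort receptors, up to 4 called members of each list, and genes called in the difference of the steps. Alternatives changed the block, the arrays, the background correction, the scaling, the filter, the threshold and the test. Other list members are examples chosen after their values were seen. Some genes that the rule names are not reported here.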

Additional observations from a re-analysis of the deposited data

Results flagged for a closer look

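In 10 of 162 groups of 4 arrays of the named genes, a single array stood far from the other 3 by Dixon's criterion, and chance gives about 1 in 20. CDP_PyMT 3 was low for A530064D06Rik, at −1.98 against −0.94 to −0.74 in the other CDP_PyMT arrays. The same array was higher than the others for Mrgpra2a (−6.47 against −7.42 to −7.39) and for Cdk18 (−5.07 against −7.43 to −7.24), genes that are near or under background in CDPs. CDP_PyMT 5 was low for Gfi1, a repressor of the neutrophil branch (−2.89 against −1.20 to −0.96), and for Naaa, a cDC1 marker (0.23 against 0.95 to 1.04), and high for Batf3 (−1.74 against −2.18 to −2.13). MDP_PyMT 4 was low for Prom1 (−0.10 against 0.60 to 0.70) and for Flt3 (0.40 against 1.40 to 1.58). MDP_PyMT 5 was low for Klf1, an erythroid factor (−6.23 against −4.19 to −3.90), and high for Ifit3 (−6.47 against −7.41 to −7.26).

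The step differed between tumor-bearing and tumor-free mice, by the test of the difference itself, for a probe of Vcan (difference 4.43) and for Cd209e (difference −3.65). Both were near background in 3 of the 4 groups and passed the filter only through the group where they were high. Both calls ended in 8 of the 16 fits that leave out 1 array and with quantile normalization, normexp correction or the deposited table.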

How the results depend on the processing

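The step called 1724 probes. It called 253 on slides 2 and 3 alone, 793 on the 8 arrays of tumor-bearing mice without and 98 with the slide block, 990 at a fold above 2, and 4122 by the methods' t-test unadjusted against 587 adjusted. Leaving out 1 array gave 979 (without MDP_PyMT 3) to 1685, with 1058 without CDP_PyMT 5. The difference of the steps called 2 probes, against 4 without the slide block, 10 with a random slide block, 1 with the filter on the compared groups or 1 probe per gene, 0 to 5 without 1 array, and 0 on slides 2 and 3 (1529 at an unadjusted p under 0.05), with normexp (1535), quantile normalization (1675), the filter on all 16 arrays (1170) or the deposited table (1512). On slides 2 and 3 alone detection was gained by 237 probes and lost by 213. The replicate block with the slide block called 1403 probes for the step and 2 for the difference, and 1501 and 4 without the slide block; same-numbered samples correlated at −0.05, 0.32, 0.46 and 0.14 (0.08, 0.21, 0.21 and −0.20 after the slide), not all over 0.1, and the labels tie no number to an experiment, so the numbers were not taken as pairs; not every sample correlated best with its own number. Of 70 named genes called, none reversed under any setting. Their calls held for 60 without the slide block, 30 on slides 2 and 3, 54 with normexp, 68 with quantile normalization, 65 in the deposited table and 62 with the replicate block, which ended those of Prg2, Zbtb46, Spib, Irf7, Elane, Ctss, Ifit3 and Btg2. On the 8 arrays of tumor-bearing mice they held for 49 without and 22 with the slide block, and for 39 by the adjusted t-test. The fit that kept 22 ended, among others, the calls of Cd209a, Erg, A530064D06Rik, Clec4a3, Cdk18 and Cabcoco1. Normexp also ended the calls of Zbtb46, Cd86, Clec10a, Ctss, Tlr8, Ifit3, Klf1 and Btg2, and the fit without the slide block those of Clec10a, Ifit3, Car1 and Btg2. Uncalled genes changed sign: Irf8 to 0.33 without the slide block, with or without the tumor-free arrays or the replicate block and in both t-tests, to 0.0274 with quantile normalization and to 0.0290 in the deposited table, Batf3 to 0.12 on slides 2 and 3 and on the 8 arrays with the slide block (without 1 array, −0.124 to 0.0304), and Flt3 without 1 array (−0.52 to 0.14). Without the slide block the median over all probes moved from −0.02 to 0.19, and list medians moved from 0.02 to 0.82 (T and NK cell), −0.05 to 0.79 (mammary) and 0.18 to 0.67 (pDC). The cause was not tested. Signal near background limits all dim probes to bounds.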

Other observations

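The genes in this section were chosen after their values were seen. Paired immunoglobulin-like receptors and other receptors with Lilr symbols, activating and inhibitory receptors of myeloid cells, rose together. All 8 tested genes with a Pira, Pirb or Lilr symbol (Pira6, Lilra6, Pirb, Pira7, Lilr4b, Pira2, Lilrb4a and Pira11) were called higher in CDPs under tumor (median change 3.10), and all 8 were called higher in tumor-free mice (median 2.96). The Pira genes are close copies of each other, so their probes may read shared transcripts. Of 7 tested Clec4 lectins, 4 were called higher under tumor (Clec4a1, Clec4b1, Clec4a3 and Clec4b2) and none lower. In tumor-free mice 4 Clec4 lectins were called higher and 2 lower. Of 7 genes of the interferon-inducible p200 family, 4 rose (Ifi203, Ifi204, Ifi205 and Ifi207), as did 4 in tumor-free mice. Over all genes, 3.94% were called higher under tumor. Among 10 tested Mas-related receptors, 4 fell (Mrgpra2a, Mrgpra2b, Mrgpra5 and Mrgpra6), where 3.25% of all genes were called lower. The probes of Mrgpra2a and Mrgpra2b are 1 measurement in practice, so this count is too high. In tumor-free mice 4 of the family were called lower and 1 higher. Of 11 carbonic anhydrases, 5 fell (Car1, Car2, Car3, Car9 and Car12), and 4 were called lower in tumor-free mice. Hoxa9 and Hoxa10 were the only 2 called of 9 tested Hoxa genes, both lower, and 1 Hoxa gene was called lower in tumor-free mice.

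Nedd4, a ubiquitin ligase, fell by 3.57 at the step under tumor (limma adjusted p = 6.08e-05) and by 0.92 in tumor-free mice, with −3.38 on slide 2 and −3.44 on slide 3. The difference of −2.65 had an unadjusted limma p of 1.43e-05 and an adjusted p of 0.0946. Rtn4rl2, a receptor related to the Nogo receptor, rose by 2.64 (limma adjusted p = 7.02e-05) and by 0.63 in tumor-free mice, and was well above background on no MDP_PyMT array and on all arrays of the other groups. The difference of 2.02 had an unadjusted limma p of 1.72e-05 and an adjusted p of 0.0946.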
